A study of Mus musculus with 24 samples.

Results

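The combination of AU-15330 and cisplatin was compared with cisplatin alone in ID8 P53 KO cells, a mouse ovarian cancer line that lacks the tumor suppressor p53. The comparison took the 6 libraries of cells given cisplatin at 750 nM together with AU-15330 at 2.5 uM and the 6 libraries of cells given cisplatin at 750 nM alone. The dose is that of the labels, and the study's methods name a different cisplatin concentration for these cells. These are 12 of the 24 libraries of the series, and all 25229 genes of the count table entered. The other 12 libraries, 6 from cells given DMSO, the vehicle, and 6 from cells given AU-15330 at 2.5 uM alone, served to set the effect of AU-15330 beside cisplatin against its effect without it. All cells carried the P53 KO genotype and were treated for 6 days, so the libraries hold no wild-type cells, and they come from a cell line in culture without stroma or immune cells. The labels number the replicates of each group and do not say whether they were separate cultures, so the p-values below measure the spread between these libraries, which may be technical.

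SMARCA4 (BRG1) and its paralog SMARCA2 (BRM) are the ATPases of the SWI/SNF complexes, which slide and evict nucleosomes and so open enhancers and promoters to transcription factors. AU-15330 is a PROTAC, a molecule that binds these ATPases and a ubiquitin ligase at the same time and so has the proteins degraded. Cisplatin forms platinum adducts and crosslinks in DNA, and tumor cells that survive it can enter senescence, a lasting arrest with an altered secretome. Adding AU-15330 to cisplatin addresses how the RNA of cells under platinum damage changes when the SWI/SNF ATPases are removed.

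Library totals ran from 21805569 to 25260009 reads on genes with cisplatin and from 19896828 to 22343677 with the combination, and a floor of 3 counts stood at no more than 0.144 CPM (counts scaled to library size) in any of the 12 libraries. The first principal component of the 12 libraries carried 88.8% of their variance and separated the groups. On the second component (3.33%) combination replicate 1 stood apart from the other 5, while the cisplatin libraries were spread, with replicates 1 and 2 toward the same end. Libraries of replicates 1 to 3 and of replicates 4 to 6 also lay nearer to each other than across this divide, with the nearest library on the same side for 5 of 6 cisplatin and 5 of 6 combination libraries. The labels name no batch, so this divide, seen only in the data, was followed by testing the cisplatin and combination libraries of each side alone. Of 10 tested markers of mesothelium and ovarian surface epithelium, the origin of ID8 cells, all were lower with the combination, and the summed level of the 11 listed was 4602 to 5278 CPM with cisplatin and 1380 to 1560 CPM with the combination. Among 14 leukocyte markers 7 had at most 3 counts in each library, Ptprc (CD45) among those never above 5 counts, while the summed level of the list was 12.5 to 19.3 CPM with cisplatin and 25.9 to 43.0 CPM with the combination, mostly from the lysosomal gene Cd68. The 2 leukocyte markers that were tested went opposite ways. Cd68 was higher, with medians of 8.88 CPM with cisplatin and 34.3 CPM with the combination, and Cd14 was lower, with medians of 5.16 and 0.804 CPM. The part of these marker changes in the results below was not tested.

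Adding AU-15330 changed the levels of most genes that were tested. Of 12941 genes that passed the low-count filter, 4579 (35.4%) were called higher and 4234 (32.7%) lower with the combination (edgeR quasi-likelihood test, Benjamini-Hochberg adjusted p under 0.05). Large decreases outnumbered large increases. The change was at least 2-fold upward for 1011 genes (7.81%) and at least 2-fold downward for 2058 (15.9%), while 5744 called genes moved by less than 2-fold and 4128 genes were not called. Past 8-fold there were 117 genes higher and 745 lower, yet the median log2 change of all tested genes was 0.04 with quartiles at -0.49 and 0.42. The levels of the 6 libraries of each group did not overlap for 6502 genes (50.2%). Since the values are relative to all RNA of a library, fewer cells that express a gene and less of its RNA per cell cannot be told apart. Log2 changes below are combination minus cisplatin, from 6 libraries a group, each with a standard error (SE). The SE is the size of the change divided by the square root of its F statistic. That statistic comes from the fit over all 24 libraries, so the spread behind the SE includes the DMSO and AU-15330 libraries.

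**Figure D1:**
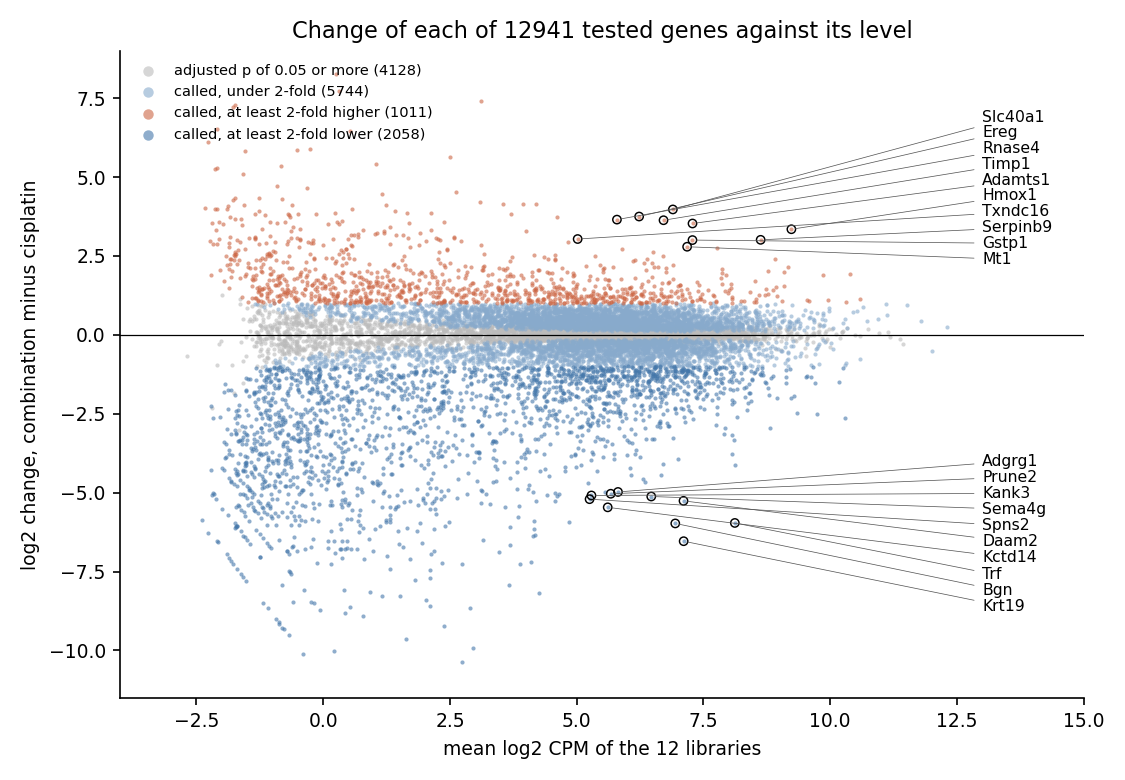
The log2 change of each of 12941 tested genes, combination minus cisplatin, is plotted against its mean log2 CPM over the 12 libraries, with called genes in color. The cloud of strong decreases, down to the genes past 8-fold (745 lower against 117 higher), lies mostly at low mean levels, where the mean includes the libraries in which a gene fell and a gene could pass the low-count filter only through the group in which it was high.

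The directions of the calls held on each side of the divide between replicates, and most calls did. Replicates 1 to 3 alone gave 3242 genes higher and 3595 lower, and replicates 4 to 6 alone gave 3825 higher and 3816 lower. These fits left out libraries of cisplatin and the combination only, and all DMSO and AU-15330 libraries stayed in for the spread. Of the 8813 genes called over all libraries, 6670 were called in the same direction by replicates 1 to 3 and 7351 by replicates 4 to 6. Of the 12931 genes tested in both, 5961 were called in the same direction on both sides and 0 in opposite directions, with 787 higher and 1842 lower by at least 2-fold on both sides (edgeR; these sets of libraries were chosen after the data were seen). Without replicate 1 of both groups 4484 genes were higher and 4221 lower.

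Among genes with a mean log2 CPM of at least 5, the 10 largest increases included the metal-handling genes Slc40a1, Hmox1 and Mt1. Slc40a1, which encodes the iron exporter ferroportin, ran from 22.1 to 36.5 CPM (median 30.6) with cisplatin and from 394 to 594 CPM (median 457) with the combination, a 15.7-fold increase (log2 3.97 ± 0.19, edgeR adjusted p = 5.1e-16). Hmox1, encoding heme oxygenase 1, which breaks down heme and frees its iron, ran from 144 to 259.7 CPM (median 187) with cisplatin and from 1646 to 2319 CPM (median 1868) with the combination, 10.2-fold higher (log2 3.35 ± 0.16, edgeR adjusted p = 6.3e-16). Mt1, a metallothionein that binds zinc, copper and platinum, ran from 38.6 to 91.5 CPM (median 51.9) with cisplatin and from 314 to 485 CPM (median 388) with the combination (6.92-fold higher, log2 2.79 ± 0.22). In none of these genes of metal handling did a combination library come as low as the highest cisplatin library. Ereg, the EGF receptor ligand epiregulin, was at 18.1 to 25.9 CPM (median 19.9) with cisplatin and 242 to 313 CPM (median 271) with the combination, 13.4-fold higher (log2 3.75 ± 0.15). Timp1, an inhibitor of matrix metalloproteinases, was at 22.2 to 40.5 CPM (median 29.96) with cisplatin and 332 to 414 CPM (median 374) with the combination (12.4-fold, log2 3.63 ± 0.17). Adamts1, a secreted protease that cleaves proteoglycans, was at 38.5 to 57.7 CPM (median 44.3) with cisplatin and 457 to 575 CPM (median 542) with the combination (11.5-fold, log2 3.53 ± 0.26). The lowest combination library stood above the highest cisplatin library for each of them.

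Serpinb9, whose product inhibits granzyme B, the protease with which cytotoxic lymphocytes kill their targets, ran from 131 to 143 CPM (median 141) with cisplatin and from 931 to 1234 CPM (median 1142) with the combination (8.06-fold higher, log2 3.01 ± 0.10, edgeR adjusted p = 7.2e-19). Rnase4, a secreted ribonuclease, ran from 14.5 to 17 CPM (median 15.4) with cisplatin and from 174 to 208 CPM (median 199.7) with the combination (12.6-fold, log2 3.65 ± 0.14). Gstp1, a glutathione transferase that conjugates electrophiles, ran from 44.8 to 71.4 CPM (median 53.7) with cisplatin and from 376 to 506 CPM (median 444) with the combination (8.01-fold, log2 3.002 ± 0.16). Txndc16, a thioredoxin-domain protein, was 8.2-fold higher at 7.16 to 14.7 CPM (median 11.6) with cisplatin and 74.2 to 107 CPM (median 96) with the combination (log2 3.04 ± 0.14). Serpinb9 and Gstp1 have close copies in the mouse genome, so reads could have been split between them, and their levels are uncertain to that extent.

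The 10 largest decreases at the same minimum level were deeper than the increases. Krt19, an intermediate filament keratin of simple epithelia and mesothelium, fell 92.9-fold, from 1164 to 1701 CPM (median 1328) with cisplatin and from 8.58 to 30.6 CPM (median 11.5) with the combination (log2 -6.54 ± 0.32, edgeR adjusted p = 1.4e-15). Bgn, the matrix proteoglycan biglycan, ran from 819 to 1124 CPM (median 1055) with cisplatin and from 7.95 to 29.7 CPM (median 15.9) with the combination (62.9-fold lower, log2 -5.97 ± 0.36). Trf, the iron carrier transferrin, ran from 1479.9 to 3839 CPM (median 1740.0) with cisplatin and from 23.6 to 56.3 CPM (median 38.8) with the combination (62.2-fold lower, log2 -5.96 ± 0.31). In Krt19, Bgn and Trf the highest combination library stayed far below the lowest cisplatin library. The cisplatin libraries of Trf split by replicate number, with means of 3108 CPM over replicates 1 to 3 and 1577 CPM over replicates 4 to 6, while the combination means were 44.7 and 30.6 CPM. Daam2, a formin-related protein of Wnt signaling, was at 679 to 981 CPM (median 877) with cisplatin and 21.1 to 24.5 CPM (median 21.8) with the combination (38.3-fold lower, log2 -5.26 ± 0.094). Spns2, the exporter of sphingosine 1-phosphate, was at 209.6 to 255 CPM (median 235) with cisplatin and 4.68 to 9.43 CPM (median 5.44) with the combination (36.9-fold lower, log2 -5.21 ± 0.18). Sema4g, a semaphorin, was at 381 to 684 CPM (median 542) with cisplatin and 13.4 to 17.6 CPM (median 14.8) with the combination (34.8-fold lower, log2 -5.12 ± 0.17). The lowest cisplatin library stood far above the highest combination library for each of these genes. Adgrg1, an adhesion G protein-coupled receptor, fell 31.5-fold, Kctd14 44.2-fold, Kank3 34-fold and Prune2 32.8-fold. The largest edgeR adjusted p of the 20 genes was 2.2e-11, for Mt1, and each differed in 1 direction in all 6 pairs of like replicate number, which the naming rule required.

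**Figure D2:**
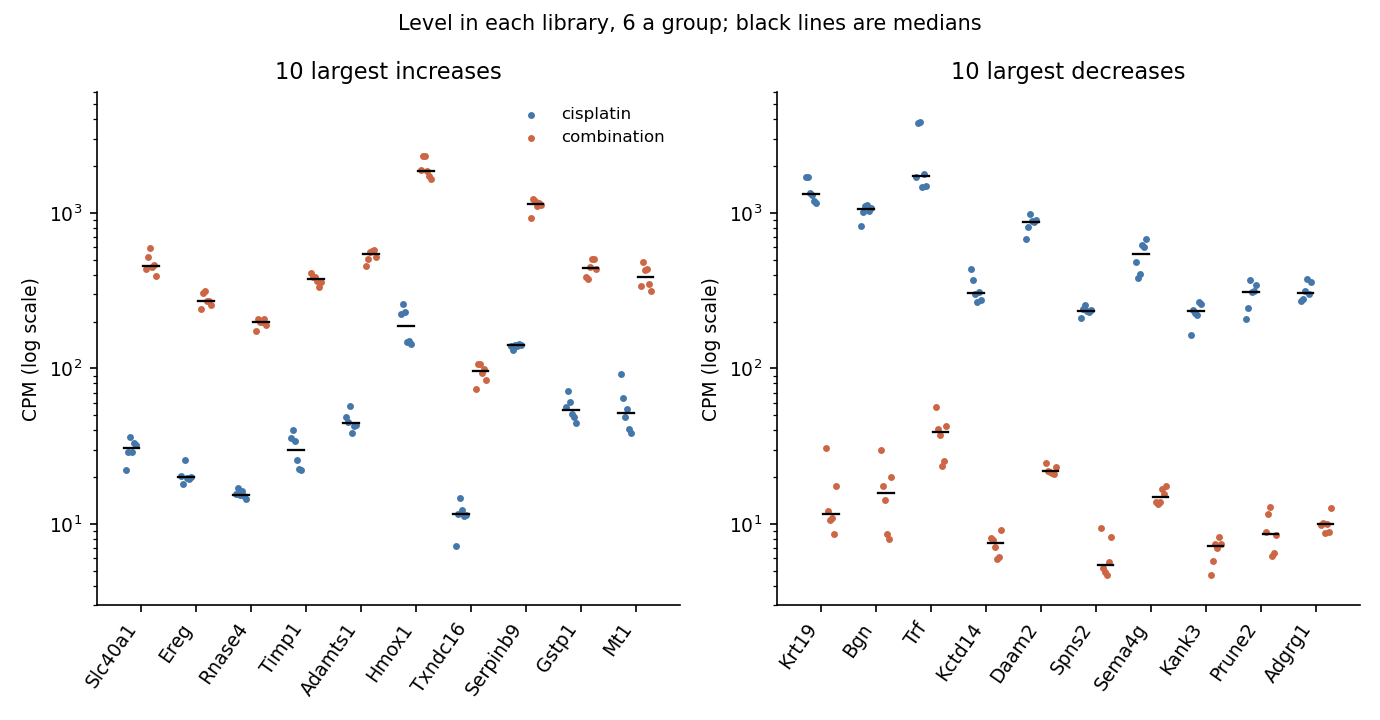
Levels in CPM on a log axis of the 10 largest increases and 10 largest decreases, with a point for each of the 6 cisplatin and 6 combination libraries and a black line at each median. The groups do not overlap in any of the 20 genes, and Trf shows the widest spread within cisplatin, 1480 to 3839 CPM.

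Some genes passed between expression and near silence. In 306 genes every combination library held at most 3 counts while all 6 cisplatin libraries held more, and 120 of these averaged at least 1 CPM with cisplatin. The opposite pattern was met by 58 genes, of which 8 averaged at least 1 CPM with the combination. The most abundant genes lost were Fxyd3, a regulator of the sodium pump, at 16.3 to 34.8 (median 22.9) CPM with cisplatin, Mybpc3, a myosin-binding protein of heart muscle, at 17.9 to 31.9 (median 21.1) CPM, and the water channel Aqp5 at 13.4 to 24.5 (median 16.4) CPM, followed by the lipase-related gene Pnliprp1 at 9.05 to 21.7 (median 16.8) CPM and the serine protease Htra3 at 11.5 to 17.2 (median 13.1) CPM. Each had at most 3 counts in every library with the combination and also in every library with AU-15330 alone. The most abundant genes gained were Nts, the neuropeptide precursor of neurotensin, at 6.47 to 18.8 (median 13.4) CPM with the combination, and the enamel matrix gene Amelx at 9.73 to 13.2 (median 12) CPM. Pcp4, a calmodulin-binding peptide, reached 1.95 to 6.19 (median 4.82) CPM, Hif3a, a hypoxia-inducible factor subunit, 1.56 to 4.65 (median 3.94) CPM, and Cabp2, a calcium-binding protein, 1.63 to 2.92 (median 2.16) CPM. These had at most 3 counts in every cisplatin library, and Nts and Amelx had 0 counts in every DMSO library while AU-15330 alone gave means of 8.82 and 5.19 CPM. With so few counts on the lower side no fold change is given.

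The genes of the SWI/SNF complexes themselves moved by about 2-fold at most. Smarca4, one of the targets of AU-15330, ran from 292 to 333 CPM (median 322) with cisplatin and from 373 to 397 CPM (median 387) with the combination, a 1.21-fold increase (log2 0.27 ± 0.055, edgeR adjusted p = 9.4e-05). Smarca2, the other ATPase, ran from 398 to 536 CPM (median 517) with cisplatin and from 200.4 to 273 CPM (median 256) with the combination, 1.99-fold lower (log2 -0.99 ± 0.085, edgeR adjusted p = 8.6e-11). AU-15330 is a degrader of the proteins, which were not measured here, so these transcript levels do not check the treatment labels. Of 25 subunit genes tested, 8 were called higher and 6 lower, shares near those of all genes, and the median log2 change was -0.01. The largest rises among expressed subunits were Arid1a, the DNA-binding subunit of the BAF complex (log2 1.01 ± 0.12), and Bicral (log2 0.91 ± 0.17). The largest fall was Bicra (log2 -1.07 ± 0.18). Bicra and Bicral encode alternative subunits of the non-canonical complex. Trp53, the gene knocked out in all 24 libraries by their labels, kept transcript reads, from 35.1 to 42.9 CPM (median 39.9) with cisplatin and from 26.3 to 35.5 CPM (median 29.5) with the combination (log2 -0.40 ± 0.085, edgeR adjusted p = 1.8e-04), with groups that overlapped. Which part of the gene was deleted is not given in the sources used here, so this transcript does not check the genotype either.

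Gene lists of pathways and families were then described by their calls, to be read beside the 35.4% higher and 32.7% lower of all tested genes and their median of 0.04. In the genes named from these lists the cisplatin and combination libraries overlapped for Psmb8, Ccl25, Fosb, Col11a2, Itgb8 and Ern1 and for no other gene. The named genes were the called members with the largest changes, so groups that lie apart follow largely from that choice. Among all tested genes the groups were apart for 50.2%.

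**Figure D3:**
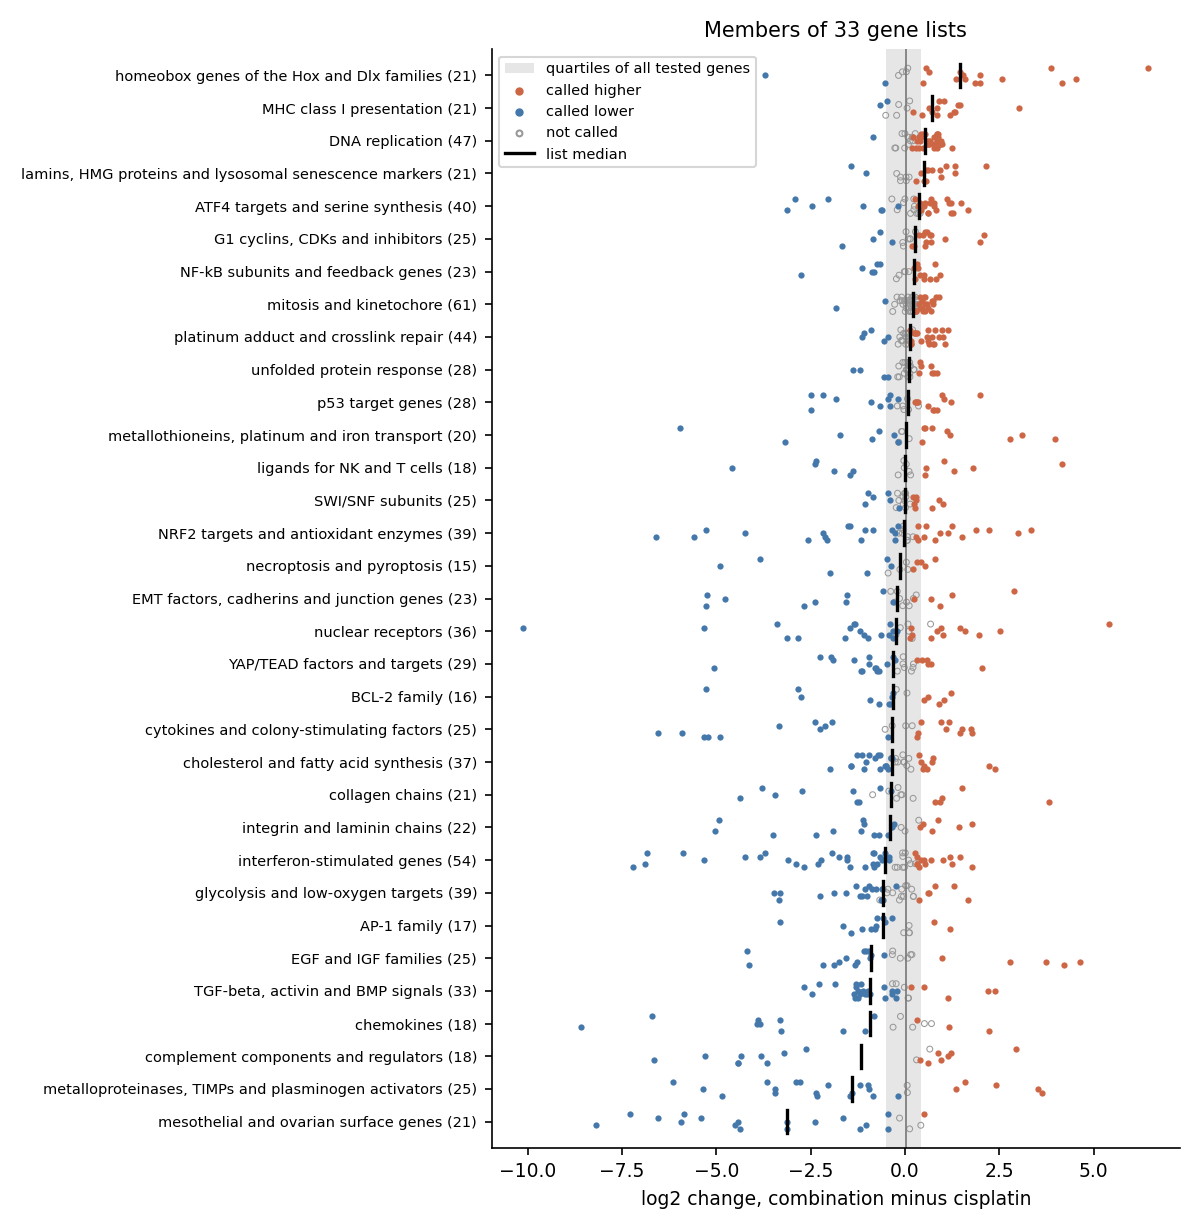
Each point is the log2 change, combination minus cisplatin, of a tested member of a gene list, filled where called, with a black line at the median of the list and a grey band over the quartiles of all tested genes (-0.49 to 0.42). The mesothelial list lies furthest to the left (median -3.13) and the homeobox list furthest to the right (median 1.46).

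Interferon-stimulated genes split. The list holds genes that interferons induce, many of them through a promoter element called the ISRE. Of 54 tested, 14 were called higher and 30 lower with the combination, 5 and 19 of them by at least 2-fold (9.26% and 35.2% of the list, against 7.81% and 15.9% of all genes), with a median log2 change of -0.52. The deepest falls were in the Oas family, whose enzymes sense double-stranded RNA and activate RNase L. Oas2 ran from 130.2 to 311 CPM (median 205) with cisplatin and from 1.04 to 2.32 CPM (median 1.21) with the combination, 147-fold lower (log2 -7.20 ± 0.32, edgeR adjusted p = 1.4e-16). Oas3 ran from 73 to 159 CPM (median 124) with cisplatin and from 0.727 to 1.35 CPM (median 0.981) with the combination, 118-fold lower (log2 -6.89 ± 0.23, edgeR adjusted p = 5.1e-19). Cisplatin libraries of these genes differed by replicate number, with Oas2 means of 132 CPM over replicates 1 to 3 and 292 CPM over replicates 4 to 6 and Oas3 means of 84.7 and 153 CPM, while all combination libraries stayed below 3 CPM. Their levels were low in the other groups as well, with Oas2 medians of 0.317 CPM with DMSO and 0.491 CPM with AU-15330 alone, and Oas3 medians of 0.412 and 0.172 CPM.

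Other members rose. Trim30a, a regulator of innate immune signaling, ran from 21.1 to 43.6 CPM (median 32.1) with cisplatin and from 77.9 to 122 CPM (median 118) with the combination, 3.44-fold higher (log2 1.78 ± 0.17, edgeR adjusted p = 9.6e-10). Irf1, a transcription factor that binds the ISRE, ran from 147 to 170.5 CPM (median 156) with cisplatin and from 385 to 481 CPM (median 443) with the combination, 2.77-fold higher (log2 1.47 ± 0.10, edgeR adjusted p = 1.8e-12). AU-15330 without cisplatin raised both, to medians of 131 and 489.8 CPM from 0.324 and 81.5 CPM with DMSO. The median log2 change of the 54 genes under AU-15330 alone was 3.01, and the change differed with and without cisplatin for 53 of them (interaction, edgeR adjusted p under 0.05, against 33.7% of all tested genes). Within replicates 1 to 3 the list had 14 higher and 27 lower, and within replicates 4 to 6 it had 11 higher and 31 lower. Among members picked here after their values were seen, Ifit3 and Ifi44 fell with Oas2 and Oas3 (log2 -4.25 ± 0.24 and log2 -5.88 ± 0.19). Herc6, Trim21 and Gbp2 rose with Irf1 (log2 1.24 ± 0.10, log2 1.20 ± 0.089 and log2 1.01 ± 0.15). Members with near-identical copies, such as Oas1a and Oas1g or Ifit3 and Ifit3b, share reads and their levels are uncertain.

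The core of the ISRE, searched as GAAANNGAA on both strands of promoters from 250 bases before to 50 after the start (RefSeq, build GRCm38.p6), was present in 8.57% of 27025 promoters. The 250 bases before the start of Oas3, which fell, and Trim30a, which rose, are shown because genes that moved in opposite directions both hold it. The Oas3 run lies at chr5:120777660-120777909 on the minus strand and the Trim30a run at chr7:104465194-104465443 on the minus strand, both written 5′ to 3′ along the gene, with the ISRE letters of either strand in capitals.
Oas3: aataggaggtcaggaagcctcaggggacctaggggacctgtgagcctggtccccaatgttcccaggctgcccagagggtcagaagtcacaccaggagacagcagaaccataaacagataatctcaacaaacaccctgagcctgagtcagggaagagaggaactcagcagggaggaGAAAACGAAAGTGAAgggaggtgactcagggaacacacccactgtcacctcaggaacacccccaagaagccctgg
Trim30a: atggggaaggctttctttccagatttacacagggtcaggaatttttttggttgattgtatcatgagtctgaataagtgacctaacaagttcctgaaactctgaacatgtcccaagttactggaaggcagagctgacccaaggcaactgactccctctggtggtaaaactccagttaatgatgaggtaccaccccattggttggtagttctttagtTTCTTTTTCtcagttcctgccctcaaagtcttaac
Oas3 holds 2 overlapping matches, the nearest 61 bases before the start, and Trim30a holds 1, written on the opposite strand, 27 bases before the start. A match is a description of the sequence and not a bound site.

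**Figure D4:**
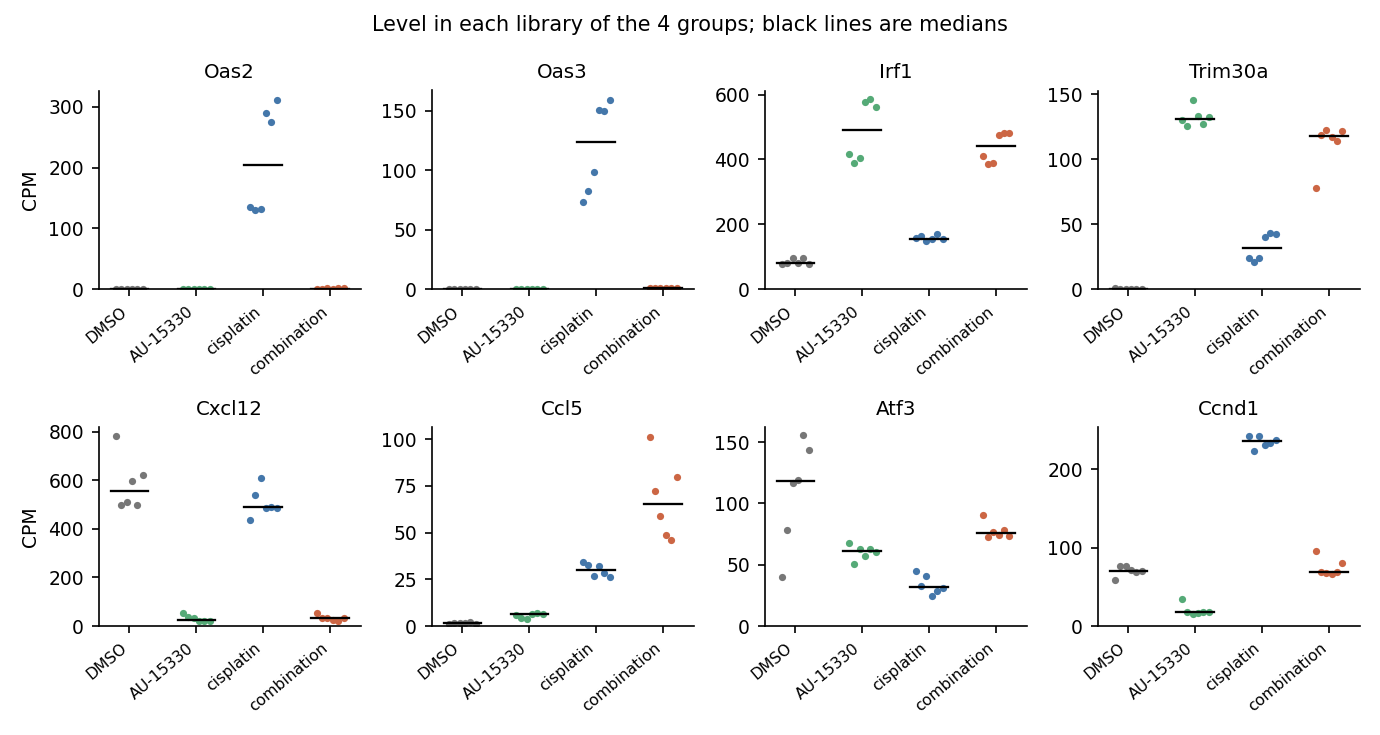
Levels in CPM (linear axes from 0) of Oas2, Oas3, Irf1, Trim30a, Cxcl12, Ccl5, Atf3 and Ccnd1 in the 6 libraries of each of the 4 groups, with black lines at medians. Oas2 and Oas3 stand above 50 CPM only with cisplatin alone, Irf1 and Trim30a are highest in the 12 libraries with AU-15330, and Ccl5 is highest with the combination.

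Antigen presentation by MHC class I, the route by which cells show peptides to CD8 T cells, moved upward as a list. Of 21 tested genes, 14 were called higher and 2 lower, 7 and 0 by at least 2-fold, with a median log2 change of 0.71. Erap1, which trims peptides in the endoplasmic reticulum, ran from 50.6 to 65.7 CPM (median 63.4) with cisplatin and from 144 to 179 CPM (median 171) with the combination (log2 1.45 ± 0.077, edgeR adjusted p = 6.0e-15). Tap2, a subunit of the peptide transporter, ran from 68.1 to 86.2 CPM (median 77.2) with cisplatin and from 175 to 220.2 CPM (median 208) with the combination (log2 1.40 ± 0.079). Both genes were higher in each combination library than in any cisplatin library. The falls were small, in the non-classical class I gene H2-T23 (log2 -0.48 ± 0.092) and the immunoproteasome subunit Psmb8 (log2 -0.66 ± 0.20, edgeR adjusted p = 0.0056). Psmb8 was not called within either replicates 1 to 3 or replicates 4 to 6 alone (edgeR adjusted p = 0.060 and 0.071). The median of the list under AU-15330 alone was 1.75. Class I heavy chain genes are near-identical, so reads could be shared among them.

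Among secreted immune signals, chemokines mostly fell. Of 18 chemokine genes tested, 3 were called higher and 10 lower, 2 and 9 by at least 2-fold, with a median of -0.94. Cxcl17, a mucosal chemokine, went from 63.7 to 85.8 CPM (median 78) with cisplatin and from 0.0455 to 0.389 CPM (median 0.166) with the combination, so that its combination libraries lay near the counting floor. Cxcl12, which draws in cells bearing CXCR4, ran from 438 to 610.4 CPM (median 489) with cisplatin and from 21.9 to 53.3 CPM (median 32.7) with the combination, 15.2-fold lower (log2 -3.92 ± 0.24, edgeR adjusted p = 6.8e-14). Ccl5, which attracts T cells and NK cells, rose, from 26.1 to 34.3 CPM (median 30.2) with cisplatin and from 45.9 to 101 CPM (median 65.5) with the combination, 2.25-fold higher (log2 1.17 ± 0.16, edgeR adjusted p = 4.2e-07). The groups were apart for all of these genes, whereas Ccl25 overlapped and its call (log2 0.32 ± 0.14, edgeR adjusted p = 0.044) was lost in most alternatives, among them without any of combination replicates 1, 4, 5 and 6 or cisplatin replicates 2 to 6.

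Cytokines went both ways, 10 of 25 tested genes higher and 11 lower (6 and 10 by at least 2-fold, median -0.34). Il1rn, the interleukin 1 receptor antagonist, fell 60.3-fold, from 213 to 269 CPM (median 227) with cisplatin and from 1.87 to 7.44 CPM (median 3.06) with the combination (log2 -5.91 ± 0.24). Il34 and Csf1 encode the ligands of the same receptor, CSF1R, and moved in opposite directions. Il34 went from a median of 11.3 to 2.01 CPM (log2 -2.39 ± 0.19) and Csf1 from 254 to 719 CPM (log2 1.46 ± 0.12). Tnfsf12, encoding the cytokine TWEAK, rose from 12.1 to 41.4 CPM (log2 1.78 ± 0.094). Of 18 ligands for NK and T cells tested, 6 were higher and 6 lower, 4 and 6 by at least 2-fold. Icam5, an adhesion molecule that binds the integrin LFA-1, ran from 2.37 to 4.98 CPM (median 3.7) with cisplatin and from 54.4 to 75.1 CPM (median 68.2) with the combination (17.8-fold higher, log2 4.15 ± 0.13). Tnfrsf10b, the mouse TRAIL receptor, rose from 7.31 to 15.6 CPM (log2 1.02 ± 0.13). Clec2d, a ligand of the inhibitory NK receptor NKR-P1B, fell from 9.82 to 1.82 CPM (log2 -2.40 ± 0.19). Lgals9, encoding galectin 9, fell from 436 to 76.6 CPM (log2 -2.35 ± 0.13).

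The NF-kB list, subunits and feedback genes of the pathway that drives inflammatory transcription, had 11 of 23 tested members higher and 6 lower, but 0 higher and 2 lower by at least 2-fold (median 0.25). Its inhibitors diverged, as Nfkbia (IkB-alpha) rose (log2 0.83 ± 0.11) and Tnfaip3 (A20) fell (log2 -1.15 ± 0.12). Birc2, encoding cIAP1, rose (log2 0.92 ± 0.075). Its partner Traf2 fell (log2 -0.88 ± 0.097). Complement genes had 7 of 18 tested members higher and 9 lower (3 and 9 by at least 2-fold, median -1.16). C3, the central component, ran from 407 to 635 CPM (median 451) with cisplatin and from 16 to 36.4 CPM (median 20.02) with the combination (21.6-fold lower, log2 -4.43 ± 0.23). Masp1, a protease that starts the lectin pathway, ran from 108 to 172 CPM (median 121) with cisplatin and from 0.719 to 2.29 CPM (median 1.1) with the combination (101-fold lower, log2 -6.66 ± 0.25). Proteases of the classical pathway diverged. C1s1, picked here after its values were seen, fell (log2 -3.21 ± 0.18), while C1ra rose, with medians of 45.4 and 85.4 CPM (log2 0.94 ± 0.096) and the related C1rl at 25.7 and 62.1 CPM (log2 1.14 ± 0.12).

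AP-1, the dimers of Fos, Jun and Atf proteins that act with SWI/SNF at many enhancers, had 2 of 17 tested members called higher and 11 lower (1 and 4 by at least 2-fold), with a median of -0.58. Maf ran from 159.6 to 205 CPM (median 176) with cisplatin and from 51.4 to 62.5 CPM (median 61.1) with the combination (log2 -1.64 ± 0.09). Fosb, an immediate early gene, ran from 47.5 to 146 CPM (median 69.5) with cisplatin and from 19.8 to 49.8 CPM (median 28.2) with the combination (log2 -1.44 ± 0.35, edgeR adjusted p = 8.0e-04), with overlapping groups. Atf3, a stress-induced member, rose instead, from 24.2 to 45.1 CPM (median 31.8) with cisplatin and from 72.5 to 90.7 CPM (median 75.5) with the combination (2.3-fold, log2 1.20 ± 0.20, edgeR adjusted p = 9.8e-06). AU-15330 without cisplatin changed Atf3 the other way, from a median of 118 CPM with DMSO to 61.5 CPM, and the change differed between the 2 backgrounds (interaction edgeR adjusted p = 4.6e-06).

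The AP-1 site, searched as TGAGTCA on both strands of the same 300-base promoters, was present in 5.17% of the 27025. The 250 bases before the starts of Mmp13, a collagenase that fell, and Gstp1, which rose, are shown because both hold it near the start. The Mmp13 run lies at chr9:7272264-7272513 on the plus strand and the Gstp1 run at chr19:4037913-4038162 on the minus strand, with the match on either strand in capitals.
Mmp13: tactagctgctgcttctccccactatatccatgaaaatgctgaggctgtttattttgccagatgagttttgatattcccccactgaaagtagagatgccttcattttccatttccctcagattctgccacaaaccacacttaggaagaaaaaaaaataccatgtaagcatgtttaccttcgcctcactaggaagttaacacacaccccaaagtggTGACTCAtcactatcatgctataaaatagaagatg
Gstp1: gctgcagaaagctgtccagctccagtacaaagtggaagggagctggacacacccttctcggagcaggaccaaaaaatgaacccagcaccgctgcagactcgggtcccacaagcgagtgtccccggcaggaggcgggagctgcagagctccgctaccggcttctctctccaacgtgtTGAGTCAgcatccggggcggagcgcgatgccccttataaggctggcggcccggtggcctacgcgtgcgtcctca
The match stands 29 bases before the start in Mmp13 and 68 bases before it in Gstp1.

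YAP and TEAD genes, the readout of the Hippo pathway, had 6 of 29 tested members higher and 16 lower (1 and 7 by at least 2-fold, median -0.31). Nuak2, a kinase, ran from 33.7 to 46.6 CPM (median 38.8) with cisplatin and from 7.43 to 9.45 CPM (median 8.28) with the combination (log2 -2.25 ± 0.14). The forkhead factor Foxf2 ran from 48.4 to 64.5 CPM (median 56) with cisplatin and from 12.9 to 18.9 CPM (median 13.7) with the combination (log2 -1.96 ± 0.15). Amot, a scaffold that restrains YAP, rose from a median of 4.2 to 20.1 CPM (log2 2.04 ± 0.17). F3, tissue factor, rose from 81 to 138 CPM (log2 0.69 ± 0.11) although AU-15330 alone lowered it (log2 -1.24 ± 0.11).

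Homeobox genes of the Hox and Dlx families, which pattern the embryo and are held silent by Polycomb in many adult cells, held several large rises. Of 21 tested, 15 were higher and 2 lower, 12 and 1 by at least 2-fold, and the median log2 change was 1.46, near the 1.43 of AU-15330 alone. Dlx1 ran from 2.43 to 3.07 CPM (median 2.77) with cisplatin and from 40.9 to 54.3 CPM (median 50.3) with the combination (17.8-fold higher, log2 4.15 ± 0.12). Its genomic neighbor Dlx2 ran from 0.994 to 1.68 CPM (median 1.23) with cisplatin and from 24.3 to 34.8 CPM (median 28.9) with the combination (23.2-fold higher, log2 4.54 ± 0.18). Dlx3 went against them, from 27.5 to 31.9 CPM (median 30.6) with cisplatin and from 1.87 to 3.03 CPM (median 2.05) with the combination (13.2-fold lower, log2 -3.72 ± 0.22). The fall of Hoxc13 (log2 -0.54 ± 0.15) was small and was not called in replicates 4 to 6 alone (edgeR adjusted p = 0.078). Of the 45 listed genes 24 did not pass the low-count filter. A gene near silence with cisplatin and DMSO passed it only through the libraries in which it was high and so had to differ, so the counts and median describe the 21 tested genes and not the family.

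Nuclear receptors, transcription factors gated by hormones and lipids, had 12 of 36 tested members higher and 18 lower (6 and 11 by at least 2-fold, median -0.23). Esr1, the estrogen receptor alpha, ran from 11 to 18.7 CPM (median 16) with cisplatin and from 49.9 to 64 CPM (median 62.4) with the combination (3.91-fold higher, log2 1.97 ± 0.13), and Nr2f1 (COUP-TFI) ran from 8.81 to 11.3 CPM (median 9.93) with cisplatin and from 47.5 to 64 CPM (median 59.6) with the combination (5.74-fold higher, log2 2.52 ± 0.11). Nr0b2, the corepressor SHP, ran from 44.2 to 61.3 CPM (median 54.9) with cisplatin and from 0.818 to 1.72 CPM (median 1.48) with the combination (40.4-fold lower, log2 -5.34 ± 0.20). None of these receptors had overlapping groups.

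Genes that mark the mesothelium and ovarian surface had the lowest median of the 33 lists. Of 21 tested, 1 was higher and 17 lower, 15 of them by at least 2-fold, with a median log2 change of -3.13. Amhr2, the receptor of anti-Müllerian hormone, ran from 275 to 371 CPM (median 314) with cisplatin and from 0.702 to 1.39 CPM (median 1.09) with the combination (289.7-fold lower, log2 -8.18 ± 0.31, edgeR adjusted p = 9.7e-18). Upk3b, an uroplakin of mesothelium, ran from 177 to 233 CPM (median 197) with cisplatin and from 0.288 to 2.42 CPM (median 1.01) with the combination (155-fold lower, log2 -7.28 ± 0.43). Pdpn, podoplanin, was the member that rose, from 213 to 228 CPM (median 224) with cisplatin and from 301 to 342 CPM (median 315) with the combination (log2 0.51 ± 0.054). Wt1 and Msln, markers picked here after their values were seen, were lower but kept high levels, with Wt1 at medians of 981 and 714 CPM and Msln at 583 and 174 CPM. AU-15330 alone gave a median of -2.41 for the list.

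In the list of EMT factors, cadherins and junction genes 5 of 23 tested were higher and 9 lower (2 and 7 by at least 2-fold, median -0.20). Vim, the mesenchymal filament vimentin, ran from 1894 to 2424 CPM (median 2122) with cisplatin and from 3681 to 4465 CPM (median 4086) with the combination (log2 0.93 ± 0.16). Esrp2, an epithelial splicing regulator, rose as well, from a median of 25.9 to 59.6 CPM (log2 1.24 ± 0.12). The claudin Cldn15 ran from 16.8 to 36.4 CPM (median 28.1) with cisplatin and from 0.279 to 1.29 CPM (median 0.734) with the combination (38.5-fold lower, log2 -5.27 ± 0.24). S100a4, a mesenchymal calcium-binding protein, ran from 83.6 to 152 CPM (median 112) with cisplatin and from 1.75 to 5.19 CPM (median 2.7) with the combination (38.1-fold lower, log2 -5.25 ± 0.30). Rises and falls therefore each included genes of epithelial and of mesenchymal cells.

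Metalloproteinases, their inhibitors and plasminogen activators had 5 of 25 tested members higher and 18 lower (5 and 14 by at least 2-fold), with a median of -1.39. Besides the rises of Timp1 and Adamts1, Mmp15, a membrane-bound metalloproteinase, ran from 30.9 to 41.8 CPM (median 35.1) with cisplatin and from 0.418 to 0.575 CPM (median 0.49) with the combination (70.7-fold lower, log2 -6.14 ± 0.19). Mmp13 ran from 20.8 to 34.2 CPM (median 27.9) with cisplatin and from 0.409 to 1.14 CPM (median 0.6249) with the combination (40.6-fold lower, log2 -5.34 ± 0.51). Collagen chains had 5 of 21 higher and 9 lower (2 and 7 by at least 2-fold, median -0.38). Col4a6, a basement membrane chain, ran from 202 to 329 CPM (median 315) with cisplatin and from 623 to 933 CPM (median 863) with the combination (log2 1.51 ± 0.12). Col17a1, the collagen of hemidesmosomes, ran from 23.4 to 40.8 CPM (median 32.4) with cisplatin and from 1.32 to 1.87 CPM (median 1.52) with the combination (20.8-fold lower, log2 -4.38 ± 0.21). Col11a2 rose (log2 0.99 ± 0.24). Col16a1 fell (log2 -1.27 ± 0.20). Integrin and laminin chains had 6 of 22 higher and 13 lower (2 and 8 by at least 2-fold, median -0.40). Itgb3, the beta chain of the vitronectin receptor, ran from 78.9 to 127 CPM (median 107) with cisplatin and from 15.9 to 25.6 CPM (median 21.4) with the combination (log2 -2.35 ± 0.16). Itga2b (log2 1.44 ± 0.11) and Itgb8 (log2 0.87 ± 0.22) rose.

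Ligands of the EGF receptor moved in opposite directions. Of 25 genes of the EGF and IGF families, 5 were higher and 14 lower (4 and 10 by at least 2-fold, median -0.91). Areg, amphiregulin, ran from 1.28 to 2.96 CPM (median 1.7) with cisplatin and from 34.9 to 39.3 CPM (median 36.8) with the combination (18.6-fold higher, log2 4.22 ± 0.22, edgeR adjusted p = 4.9e-15), beside the rise of Ereg, whereas Tgfa, another EGF receptor ligand, ran from 107 to 155 CPM (median 143) with cisplatin and from 6.04 to 8.51 CPM (median 7.52) with the combination (18.4-fold lower, log2 -4.20 ± 0.13, edgeR adjusted p = 2.9e-19). Igfbp4, which sequesters insulin-like growth factors, ran from 947 to 1518 CPM (median 1106) with cisplatin and from 55.1 to 96.4 CPM (median 58.8) with the combination (17.6-fold lower, log2 -4.14 ± 0.17). TGF-beta, activin and BMP genes had 5 of 33 higher and 23 lower (3 and 15 by at least 2-fold, median -0.94), and without combination replicate 2 or 3 or without cisplatin replicate 1 or 2 the number higher was 3. The activin subunits diverged, Inhba rising from a median of 16.2 to 35.4 CPM (log2 1.14 ± 0.095) and Inhbb falling from 95.4 to 14.3 CPM (log2 -2.46 ± 0.29). Id2, an inhibitor of basic helix-loop-helix factors, ran from 19.1 to 50.2 CPM (median 28) with cisplatin and from 151 to 220.4 CPM (median 158) with the combination (5.2-fold higher, log2 2.38 ± 0.35). The secreted Fstl1 ran from 144 to 219 CPM (median 176) with cisplatin and from 21.7 to 33.5 CPM (median 29.2) with the combination (6.4-fold lower, log2 -2.68 ± 0.16).

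Most replication genes rose, by small amounts. Of 47 tested, 35 were higher and 1 lower, 1 and 0 by at least 2-fold, with a median of 0.53. Mcm5, a subunit of the replicative helicase, ran from 110.2 to 185 CPM (median 135) with cisplatin and from 291 to 376 CPM (median 321) with the combination (2.36-fold, log2 1.24 ± 0.16, edgeR adjusted p = 1.2e-07). Pola1, the catalytic subunit of polymerase alpha, ran from 29.4 to 43.8 CPM (median 38.6) with cisplatin and from 70.7 to 81.2 CPM (median 75.8) with the combination (log2 0.99 ± 0.079). Rrm1, a subunit of ribonucleotide reductase, was the member that fell, from 359 to 433 CPM (median 369) with cisplatin and from 184 to 259 CPM (median 205) with the combination (log2 -0.86 ± 0.14). Mitotic and kinetochore genes had 20 of 61 higher and 2 lower, 0 and 1 by at least 2-fold, with a median of 0.22 against 1.07 under AU-15330 alone. That count was 5 higher in replicates 1 to 3, 9 in replicates 4 to 6 and 32 in a fit of the 12 libraries alone. Smc4, a condensin subunit, rose (log2 0.90 ± 0.083) with Cenpi (log2 0.82 ± 0.17). Cdc25b, a phosphatase that activates CDK1, fell, from 122 to 137 CPM (median 128) with cisplatin and from 32 to 41 CPM (median 36.9) with the combination (3.54-fold lower, log2 -1.82 ± 0.14). Kif23 (log2 -0.54 ± 0.18) was not called within either set of 3 replicates.

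Regulators of entry into the cycle had 14 of 25 tested genes higher and 4 lower (3 and 1 by at least 2-fold, median 0.28). The D cyclins diverged. Ccnd2 ran from 239 to 324 CPM (median 269) with cisplatin and from 907 to 1189 CPM (median 1135) with the combination (4.001-fold higher, log2 2.000 ± 0.13). Ccnd1 ran from 223 to 243 CPM (median 236) with cisplatin and from 66.3 to 95.3 CPM (median 68.8) with the combination (3.15-fold lower, log2 -1.66 ± 0.14). Ccne1, cyclin E1, ran from 3.42 to 7.57 CPM (median 5.68) with cisplatin and from 22.6 to 27.4 CPM (median 23) with the combination (4.25-fold higher, log2 2.09 ± 0.18). Rb1, the retinoblastoma protein that holds back E2F factors, fell from a median of 43.8 to 23.1 CPM (log2 -0.86 ± 0.11). Known p53 targets, in cells without p53, had 12 of 28 higher and 10 lower (3 and 4 by at least 2-fold, median 0.08). Bbc3 (PUMA), which promotes apoptosis, rose from 14.4 to 33.7 CPM (log2 1.22 ± 0.14). Trp53inp1 fell from 142 to 25.1 CPM (log2 -2.49 ± 0.13). Ephx1, epoxide hydrolase 1, fell from 130.0 to 24.6 CPM (log2 -2.49 ± 0.14).

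Lamins, HMG proteins and lysosomal enzymes, used as markers of senescence, had 13 of 21 tested genes higher and 2 lower (4 and 2 by at least 2-fold, median 0.50). Among the rises was the lysosomal enzyme Gla, alpha-galactosidase A, which ran from 21.3 to 30.2 CPM (median 25.3) with cisplatin and from 99.7 to 117 CPM (median 112) with the combination (4.42-fold, log2 2.14 ± 0.078). The falls were in the chromatin proteins Hmga2 (log2 -1.42 ± 0.14) and Hmgb3 (log2 -1.04 ± 0.20). Repair genes for platinum adducts and crosslinks had 22 of 44 higher and 5 lower (3 and 2 by at least 2-fold, median 0.14). Ube2t, the ubiquitin-conjugating enzyme of the Fanconi pathway, rose from a median of 14 to 29.7 CPM (log2 1.14 ± 0.15) with Fancb (log2 1.06 ± 0.12). Rev3l, the catalytic subunit of the translesion polymerase zeta, fell from 118 to 54.5 CPM (log2 -1.13 ± 0.16) with Rad51b (log2 -1.09 ± 0.17).

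Antioxidant genes and NRF2 targets had 14 of 39 tested members higher and 17 lower (7 and 12 by at least 2-fold, median -0.04). Glutathione transferases went apart, Gstp1 rising as above and Gstm1 falling, from 20.6 to 28.1 CPM (median 22) with cisplatin and from 2.68 to 4.55 CPM (median 4.1) with the combination (5.97-fold lower, log2 -2.58 ± 0.19). The extracellular superoxide dismutase Sod3 ran from 92.4 to 119 CPM (median 108) with cisplatin and from 20.03 to 32.3 CPM (median 22) with the combination (log2 -2.16 ± 0.14). Metal transport genes had 9 of 20 higher and 7 lower (5 and 3 by at least 2-fold, median 0.02). Mt2 ran from 1.07 to 3.58 CPM (median 1.75) with cisplatin and from 13.2 to 24.1 CPM (median 16.7) with the combination (8.61-fold higher, log2 3.11 ± 0.26), following Mt1, and the zinc exporter Slc30a1 fell from a median of 83.7 to 46.2 CPM (log2 -0.86 ± 0.095).

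The ATF4 list, amino acid and serine synthesis genes that rise when cells sense amino acid or endoplasmic reticulum stress, had 20 of 40 tested members higher and 8 lower (7 and 5 by at least 2-fold), with a median of 0.37. Under AU-15330 alone its median was -0.75, and the change differed with and without cisplatin for 35 of the 40 (against 33.7% of all tested genes). Chac1, which degrades glutathione, ran from 13.6 to 23.8 CPM (median 19.5) with cisplatin and from 47.2 to 59.3 CPM (median 53.2) with the combination (2.8-fold higher, log2 1.48 ± 0.22, edgeR adjusted p = 1.3e-06). Shmt1, a serine hydroxymethyltransferase, ran from 12.2 to 20.04 CPM (median 18.2) with cisplatin and from 50.05 to 59.997 CPM (median 53.4) with the combination (3.19-fold higher, log2 1.67 ± 0.12). Aldh1l2, a mitochondrial folate enzyme, ran from 9.5 to 13.1 CPM (median 11.1) with cisplatin and from 1.49 to 2.63 CPM (median 1.88) with the combination (5.54-fold lower, log2 -2.47 ± 0.29), from a DMSO median of 132 CPM. Nupr1, a stress-induced chromatin protein, ran from 279 to 454 CPM (median 361) with cisplatin and from 60.5 to 103 CPM (median 94.9) with the combination (4.13-fold lower, log2 -2.05 ± 0.31, edgeR adjusted p = 2.4e-06). Groups were apart in each of these.

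The composite site of ATF4 with C/EBP proteins, searched as TGATGNAA on both strands, was present in 4.06% of the 27025 promoters and in 9 of the 33 promoters found for the 40 tested members (27.3%). Chac1, which rose, and Nupr1, which fell, both hold it and are shown for that reason, the 250 bases before the start of Chac1 at chr2:119350992-119351241 on the plus strand and of Nupr1 at chr7:126625471-126625720 on the minus strand, with the match in capitals.
Chac1: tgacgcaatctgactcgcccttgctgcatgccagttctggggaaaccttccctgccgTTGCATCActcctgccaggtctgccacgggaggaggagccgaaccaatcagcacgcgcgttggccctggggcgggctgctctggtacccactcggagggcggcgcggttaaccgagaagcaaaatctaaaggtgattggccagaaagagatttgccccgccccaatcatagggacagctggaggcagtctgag
Nupr1: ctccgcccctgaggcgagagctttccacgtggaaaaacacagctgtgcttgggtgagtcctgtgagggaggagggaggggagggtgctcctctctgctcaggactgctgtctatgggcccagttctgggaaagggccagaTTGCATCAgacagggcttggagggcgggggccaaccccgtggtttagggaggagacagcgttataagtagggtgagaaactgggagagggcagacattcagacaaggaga
In both the match reads on the opposite strand, 186 bases before the start in Chac1 and 103 bases before it in Nupr1.

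Folding genes of the unfolded protein response had 7 of 28 tested members higher and 4 lower (0 and 2 by at least 2-fold, median 0.10). Xbp1, a transcription factor of this response, ran from 146 to 183 CPM (median 166) with cisplatin and from 60.2 to 67.4 CPM (median 63.6) with the combination (2.6-fold lower, log2 -1.38 ± 0.075). Ern1, whose product IRE1 splices the Xbp1 transcript, rose (log2 0.85 ± 0.21) with Wfs1 (log2 0.77 ± 0.14). Ero1l, an oxidase of the endoplasmic reticulum, ran from 64.9 to 196 CPM (median 94.4) with cisplatin and from 44.7 to 55.8 CPM (median 46.5) with the combination (log2 -1.19 ± 0.30). It was not called in replicates 4 to 6 alone (edgeR adjusted p = 0.14). Glycolysis and low-oxygen targets fell more often than they rose, 6 of 39 higher and 19 lower (2 and 11 by at least 2-fold, median -0.57, against -1.19 under AU-15330 alone). Ndrg1 ran from 147 to 285 CPM (median 196) with cisplatin and from 15.2 to 26.8 CPM (median 21.8) with the combination (10.1-fold lower, log2 -3.33 ± 0.22). The collagen prolyl hydroxylase P4ha2 ran from 14.6 to 40.4 CPM (median 24.4) with cisplatin and from 1.59 to 2.98 CPM (median 2.26) with the combination (11.2-fold lower, log2 -3.48 ± 0.34). Eno2 (log2 1.29 ± 0.15) and Pfkfb3 (log2 0.79 ± 0.12), enzymes of glycolysis and its control, rose.

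Lipid synthesis genes had 9 of 37 tested members higher and 18 lower (2 and 7 by at least 2-fold, median -0.35). Scd1, the stearoyl-CoA desaturase, ran from 186 to 266 CPM (median 206) with cisplatin and from 743 to 1369 CPM (median 1165) with the combination (5.25-fold higher, log2 2.39 ± 0.20). Acacb, an acetyl-CoA carboxylase, ran from 15.2 to 26.6 CPM (median 20.3) with cisplatin and from 74.1 to 114 CPM (median 96.6) with the combination (4.66-fold higher, log2 2.22 ± 0.15). Fads1, a desaturase of polyunsaturated fatty acids, ran from 598 to 691 CPM (median 629) with cisplatin and from 139.8 to 182 CPM (median 163) with the combination (3.94-fold lower, log2 -1.98 ± 0.12). The phosphatidate phosphatase Lpin1 fell from a median of 81.8 to 30.4 CPM (log2 -1.44 ± 0.11).

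Cell death genes changed in both directions. The BCL-2 family had 5 of 16 tested members higher and 9 lower (2 and 3 by at least 2-fold, median -0.33). The death-promoting members Bmf, from 68.8 to 133 CPM (median 119) with cisplatin and from 10.3 to 19.8 CPM (median 17) with the combination (6.81-fold lower, log2 -2.77 ± 0.16), and Bok, from 88.5 to 124 CPM (median 96.9) with cisplatin and from 11.9 to 19.8 CPM (median 13.6) with the combination (7.17-fold lower, log2 -2.84 ± 0.16), fell, while Bid, which links death receptors to mitochondria, rose from a median of 34.7 to 72.9 CPM (log2 1.03 ± 0.096) with Bbc3. Genes of necroptosis and pyroptosis had 5 of 15 higher and 6 lower (0 and 3 by at least 2-fold, median -0.13). The death receptor adaptor Fadd (log2 0.79 ± 0.1) and Casp8 (log2 0.52 ± 0.057) rose, and Gsdmd (log2 -0.995 ± 0.078) and Ninj1 (log2 -0.49 ± 0.072), which open and rupture the membrane in pyroptosis, fell.

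AU-15330 moved many of the same genes without cisplatin. Against DMSO it raised 1733 genes by at least 2-fold (13.4%) and lowered 2082 (16.1%). The 2 comparisons have no library in common, but the filter and the spread were estimated from all 24 libraries in 1 fit. Of the 1011 genes higher by at least 2-fold beside cisplatin, 860 were also higher by as much without it, 85.1% of the first list and 49.6% of the second. Of the 2058 lower genes, 1641 were lower in both, 79.7% and 78.8%. Opposite directions were seen for 4 genes higher and 43 genes lower beside cisplatin. Across the 12941 genes, which are not independent of each other, the correlation of the log2 changes was 0.861.

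The size of the effect nevertheless differed with cisplatin for many genes. The interaction was called for 4361 genes (33.7%), among them 43.2% of the genes at least 2-fold higher and 39.4% of those at least 2-fold lower. Of the 20 genes with the largest changes 12 were called. These genes and the 2-fold sets were chosen by their change beside cisplatin, which is a part of the interaction. The choice can therefore raise their shares of interaction calls. Trf fell less beside cisplatin (log2 -5.96 ± 0.31) than without it (log2 -9.64 ± 0.37), a difference of 3.68 (edgeR adjusted p = 5.6e-08), and its medians were 4820.0 CPM with DMSO and 6.01 CPM with AU-15330. Bgn differed in the same way, by 2.54 (edgeR adjusted p = 1.3e-04). Rnase4 rose less beside cisplatin, by -2.54 (edgeR adjusted p = 1.1e-10), from a median of 3.14 CPM with DMSO to 281 CPM with AU-15330. Ereg, Timp1 and Hmox1 rose more beside cisplatin, by 1.22, 1.17 and 1.30 on the log2 scale. For Slc40a1, Adamts1, Gstp1, Mt1, Kctd14, Daam2, Prune2 and Adgrg1 the interaction was not called. Aldh1l2 had the largest difference among the named ATF4 genes, 5.23 (edgeR adjusted p = 2.9e-09), with a fall of log2 -7.70 ± 0.34 under AU-15330 alone.

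**Figure D5:**
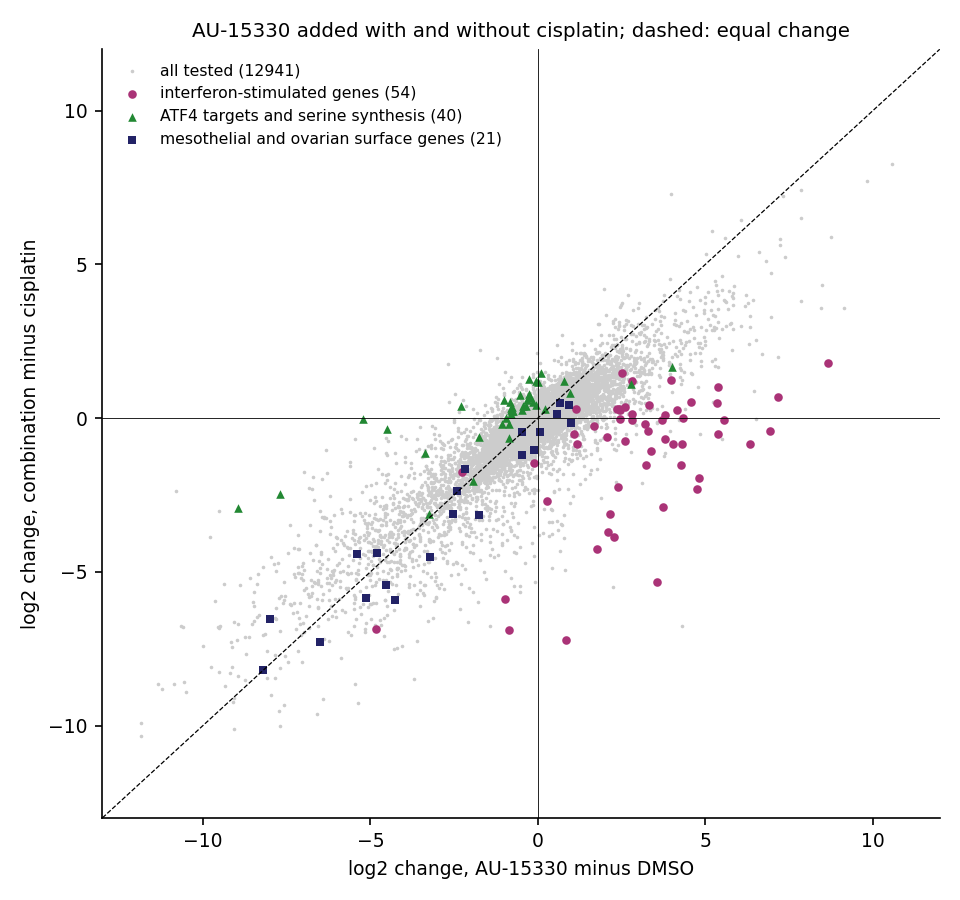
The log2 change of each tested gene when AU-15330 is added to cisplatin (vertical) is plotted against its change when added to DMSO (horizontal), with members of named lists in color and a dashed line at equal change. Most genes lie along the line (correlation 0.861 across 12941 genes), while most interferon-stimulated genes lie to the right of and below it (medians 3.01 and -0.52).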

How the data were processed

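RNA was sequenced after polyA enrichment with a directional kit, as 70-base single-end reads per the study's methods. The submitters' processing notes name STAR 2.7.1a, DESeq2 1.36.0 and build mm10. The counting tool, annotation and use of strand were not given in the sources used here. The deposited values are the authors' raw read counts per gene symbol for 24 libraries, each in 2 of the 48 columns, 1 a lane, which were added up. Chi-square over degrees of freedom was 1.36 to 1.46 between lanes and 3.78 to 68.0 between replicates of the 2 groups, so no library was a copy of another.

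The test was edgeR 4.0.16 (R 4.3.3) with filterByExpr, TMM and 4 group means over 24 libraries, a quasi-likelihood fit that left 20 degrees of freedom, and p-values were adjusted by Benjamini-Hochberg over the 12941 genes. CPM are counts scaled to the TMM-adjusted total of the tested genes, and log2 CPM used a prior count of 2. The floor of 3 counts covers counting error only. The edgeR fit at these settings was run on simulated counts with known changes. The alternatives, the search for distant libraries, the list counts and the promoter search were not. Named genes were the 10 largest changes in each direction at a mean log2 CPM of at least 5 with 6 of 6 pairs agreeing in sign, up to 2 called members in each direction of each list at a mean of at least 2, Smarca4, Smarca2 and Trp53, and the 5 most abundant genes in each direction with at most 3 counts in every library of the other group. A few genes that this rule names are not reported here. The members, lists and tests were chosen with earlier results of these data known. Alternatives used DESeq2 1.42.0 and glmTreat among others. Promoters came from a RefSeq table of build GRCm38.p6, the assembly also named mm10. A planned comparison of promoter composition between changed and unchanged genes was void, since a promoter was found for only 78.1% of the higher, 75.3% of the lower and 79.1% of the uncalled genes, under the minimum of 80%.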

Additional observations from a re-analysis of the deposited data

Results flagged for a closer look

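In 294 groups of 6 libraries, the named genes in each of the treatments compared, without groups at or under 3 counts, a library stood far from the other 5 in 23 (7.82%), where chance alone gives about 1 in 20. Combination replicate 1 was that library in 11 of them and cisplatin replicate 1 in 5. Values below are in CPM, with the range of the other 5 libraries in parentheses. In combination replicate 1, Bicral was at 66.7 (90.2 to 103), Smarca2 at 200.4 (251 to 273), Trim30a at 77.9 (114 to 122), Esr1 at 49.9 (60.4 to 64.0), Col4a6 at 623 (819 to 933) and Ern1 at 76.0 (133 to 142), all below the rest. In the same library Atf3 was at 90.7 (72.5 to 78.0), Foxf2 at 18.9 (12.9 to 14.9), Id2 at 220.4 (151 to 161), Hmgb3 at 15.53 (8.77 to 10.7) and Fadd at 32.2 (26.0 to 27.8), all above the rest. In cisplatin replicate 1, Bgn was at 819 (1012 to 1124), C1ra at 29.7 (42.9 to 49.1) and Bmf at 68.8 (113 to 133), below the rest, while Ccl25 was at 13.3 (9.26 to 9.79) and Rrm1 at 433 (359 to 384), above it.

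The remaining distant libraries were spread over 5 others. Cisplatin replicate 3 was high for Ereg at 25.9 (18.1 to 20.2) and Scd1 at 266 (186 to 214), cisplatin replicate 2 low for Serpinb9 at 131 (139 to 143), and cisplatin replicate 5 high for Tnfrsf10b at 9.39 (6.54 to 7.58). Combination replicate 6 was high for Adgrg1 at 12.6 (8.72 to 10.1) and C3 at 36.4 (16.01 to 22.4), and combination replicate 3 high for Fosb at 49.8 (19.8 to 30.4). Except for Ccl25, each of these genes was still called in the same direction without any of the 12 libraries left out in turn.

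For 12 of the 20 genes with the largest changes, the effect of AU-15330 differed with and without cisplatin by the interaction test of the same edgeR fit. The differences of the log2 changes, with minus without cisplatin, were positive for Ereg (1.22, edgeR adjusted p = 3.0e-05), Timp1 (1.17, 0.00022), Hmox1 (1.30, 2.8e-05), Krt19 (1.45, 0.0043), Bgn (2.54, 0.00013), Trf (3.68, 5.6e-08), Spns2 (1.08, 0.00087) and Kank3 (1.01, 0.00034). They were negative for Rnase4 (-2.54, 1.1e-10), Txndc16 (-1.08, 0.00013), Serpinb9 (-1.21, 1.3e-07) and Sema4g (-0.91, 0.0014). The falls of Krt19, Bgn, Trf, Spns2 and Kank3 were thus smaller beside cisplatin by this test. Against a fold change of 1.5 (glmTreat) the differences for Krt19, Spns2, Kank3 and Sema4g were not called (edgeR adjusted p = 0.054, 0.068, 0.064 and 0.17).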

How the results depend on the processing

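The counts of genes higher and lower stayed within 1.5 times of the reported ones under other scalings, DESeq2, no filter, the 12 libraries alone and each side of the divide between replicates, and 0 genes called in both fits changed direction. Leaving out each of the 12 libraries in turn gave 4413 to 4576 genes higher, 4141 to 4288 lower and 8558 to 8864 in either direction, with 1007 to 1059 and 2053 to 2137 by at least 2-fold and 3984 to 4690 interactions. A test against a fold change of 1.5 in place of 1 (glmTreat) left 1459 genes higher, 2344 lower, 3803 in either direction and 926 interactions, by its stricter construction. With only replicates 1 to 3 of cisplatin and the combination 2301 interactions were called, and with only replicates 4 to 6 of these groups 3639, against 4361. All DMSO and AU-15330 libraries stayed in these fits, so that side of the interaction crossed the divide. The cause of the difference between these counts was not tested.

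Same-numbered libraries of the 2 groups deviated together (correlation over 0.1) in 3 of 6 pairs, and 1 of 6 combination and 3 of 6 cisplatin libraries correlated best with their own number, so the numbers were not taken to pair the samples. With the replicate number as a block 4874 genes were higher, 4412 lower and 9286 changed in either direction, 1021 and 2060 of them by at least 2-fold, and 5303 interactions were called. With the divide between replicates as a factor 4723 genes were higher and 4326 lower, and 4941 interactions were called. The difference for Adamts1 between backgrounds, 0.02 and not called, changed sign to -0.0018 with DESeq2 size factors, -0.052 with total counts, -0.0030 by the DESeq2 Wald test, -0.083 with the replicate block, -0.21 in replicates 1 to 3 and -0.017 with the divide as a factor, and it ranged from -0.021 to 0.10 when libraries were left out in turn. That for Gstp1 changed to -0.20 in replicates 1 to 3. These differences are near 0 and the cause was not tested.

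Among the 152 named genes 0 changed direction. Calls were lost for Ccl25 in most alternatives and for Psmb8, Hoxc13, Kif23 and Ero1l on a side of the divide, and the test against a fold change of 1.5 kept 137. With total counts in place of TMM 5111 genes were higher and 3877 lower, with a shift of all genes by 0.07 on the log2 scale. Without the low-count filter 20428 genes were tested, with 1419 higher and 2941 lower by at least 2-fold. Of the counts of called members in the gene lists, 1445 stayed within 1.5 times and 73 did not, most of these with the test against a fold change of 1.5. That test left more members lower than higher in the SWI/SNF (2 higher, 3 lower), NF-kB (3 and 5) and unfolded protein response lists (0 and 2). The p53 list turned to 11 and 12 without the filter and to 10 and 11 without cisplatin replicate 2, and the NRF2 list to 15 and 14 in replicates 4 to 6. Medians near 0 changed sign under other scalings, to -0.03 for ligands for NK and T cells and -0.01 for metal transport with DESeq2 size factors, and to 0.06 for SWI/SNF and 0.02 for NRF2 with total counts. In replicates 1 to 3 alone the median for ligands for NK and T cells was -0.24, with 5 higher and 6 lower.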
